A study of Mus musculus with 52 samples.

Results

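Late spermatid genes were read from bulk RNA sequencing of mouse testes. The 8 genes, of 34865 in the testes table, were taken by symbol: Prm1, Prm2 and Prm3 (protamines and a protamine-like neighbour), Tnp1 and Tnp2 (transition proteins), Smcp (a protein of the sperm mitochondrial capsule), Oaz3 (the testis antizyme) and Spem1 (a protein needed for sperm maturation). Each symbol matched 1 gene, and all 8 are protein coding. The study asked what the deletion of the long noncoding RNA gene Tug1, whose loss leaves male mice sterile, does to gene expression, and whether Tug1 RNA from a transgene offsets it.

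The testes came from 4 wild-type, 4 Tug1-/- and 3 rescue males. All testes are labelled C57BL/6J/129S6, with C57BL/6J added in brackets for every group, and further with no Neo for wild type and with Neo and LacZ for Tug1-/- and rescue. The study's methods state that the neomycin resistance gene was bred out of the colony, so the sources differ on whether these testes carried it. If they did, the cassette cannot be told apart from the loss of Tug1. In Tug1-/- mice (allele Tug1_tm1.1Vlcg) a lacZ reporter replaced the gene body, with the promoter and the first exon left in place. Rescue mice had the same allele on both chromosomes plus tg(Tug1), a randomly integrated transgene from a Tet-On vector that lacks the 5′ part of the RNA, and CAGs-rtTA3, the activator that switches it on under doxycycline, given in the food. No group carried the transgenes without the deletion, so these, the drug and the returned RNA cannot be told apart. No ages are given in the labels. For MEFs (fibroblasts cultured from mouse embryos), spleen, liver, heart and eyes there were 3 wild-type and 3 Tug1-/- samples each, and for prostate 3 and 2. Those samples are labelled N3-C57BL/6J, no Neo, in both genotypes. Of the 52 samples of the series, 46 lie behind these values. Testes of 6 F1 hybrid mice were not analysed here.

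The deposited values are the authors' group means in TPM (transcript abundance, with reads scaled for gene length and library total). No single-library value, spread or depth is used, so all values below are descriptions of these means, without an error, an n-based interval or a test. The authors' own comparisons of these groups, deposited beside the means, were not used, and whether a difference exceeds the spread between animals was not tested. Tug1 itself, at 40.1 TPM in wild-type testes, was at 0.885 TPM in Tug1-/- and 1.60 TPM in rescue testes. The rescue mean was thus 4.0% of the wild-type mean. In the other tissues wild-type Tug1 lay between 10.1 and 57.5 TPM and did not exceed 0.237 TPM without the gene, and defining markers checked for 4 of these tissues were high where the label places them, at 97035 TPM for Alb in wild-type liver, 4692 for Myh6 in heart, 65995 for Pbsn in prostate and 6584 for Col1a1 in MEFs.

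During the last part of sperm formation the round spermatid becomes an elongated cell with a compact nucleus. Histones give way first to transition proteins and then to protamines, small basic proteins that pack DNA tightly. Most of these genes are transcribed in round spermatids, and their messages are stored for days before they are translated, because transcription stops as the nucleus condenses. CREM, a factor that binds cAMP response elements, is known to act on many of their promoters.

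Of the 8 genes, 4 lie in 1 cluster on chromosome 16 of GRCm38, all on the minus strand. Tnp2 (ENSMUSG00000043050.7) spans chr16:10787936-10788655, Prm3 (ENSMUSG00000050058.6) chr16:10790505-10790914, Prm2 (ENSMUSG00000038015.6) chr16:10791380-10796134 and Prm1 (ENSMUSG00000022501.5) chr16:10796326-10796886, so that the cluster takes 8.95 kb. Tnp1 (ENSMUSG00000026182.6) lies at chr1:73015074-73015909, Smcp (ENSMUSG00000074435.10) at chr3:92583867-92588997, Oaz3 (ENSMUSG00000028141.11) at chr3:94432414-94443915 and Spem1 (ENSMUSG00000041165.6) at chr11:69820876-69822180, also on the minus strand. The genes are short: in GENCODE vM21 the first transcript of Prm1 has 2 exons and 469 bases, that of Tnp1 2 exons and 437 bases, and that of Prm3 1 exon and 410 bases. The deposited span of Prm2 holds a second transcript that starts near Prm1, and the length behind its TPM is not given in the sources used here.

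RefSeq promoters (GRCm38.p6) were found for 7 of the 8, all but Oaz3. They are shown for the protamine cluster and Tnp1, the genes with the highest testes levels and the cluster's low member Prm3, as the 100 bases before the RefSeq start on the gene's strand. Capitals mark TGANNTCA, which is the cAMP response element TGACGTCA with any letters in its middle, and TATA. Both were chosen after the sequences were seen.
Prm1, chr16:10796824-10796923, minus strand: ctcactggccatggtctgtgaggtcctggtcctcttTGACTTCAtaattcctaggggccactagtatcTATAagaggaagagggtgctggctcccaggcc
Prm2, chr16:10792106-10792205, minus strand: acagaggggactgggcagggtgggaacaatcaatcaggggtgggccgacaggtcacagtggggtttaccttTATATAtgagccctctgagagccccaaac
Prm3, chr16:10790915-10791014, minus strand: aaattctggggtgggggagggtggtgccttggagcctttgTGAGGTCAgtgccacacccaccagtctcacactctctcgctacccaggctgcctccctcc
Tnp2, chr16:10788656-10788755, minus strand: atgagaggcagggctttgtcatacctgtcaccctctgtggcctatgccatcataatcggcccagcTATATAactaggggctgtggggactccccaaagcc
Tnp1, chr1:73015900-73015999, minus strand: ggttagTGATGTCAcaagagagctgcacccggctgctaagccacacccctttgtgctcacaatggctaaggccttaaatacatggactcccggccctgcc

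Neither the full element TGACGTCA nor its first letters TGACG, which lie inside it, occurred on either strand in the 7 promoters, counted from 250 bases before to 50 after the start. Of all 32851 promoters, 1.79% held TGACGTCA and 20.8% held TGACG. The looser TGANNTCA occurred in 4 of the 7, against 14.1% of all promoters. It read TGACTTCA in Prm1, 64 bases before the start, TGAGGTCA in Prm3, 60 before, and TGATGTCA in Tnp1, 94 before. In Smcp TGATGTCA lay 24 bases after the RefSeq start, which is 52 bases before the start of the first GENCODE transcript. In Prm1 the GENCODE transcript begins upstream of the RefSeq one, so that the same letters fall at its very start and the TATA named next falls inside it. TATA lay 32 bases before the RefSeq start in Prm1, 29 and 27 in Prm2 and 35 and 33 in Tnp2. In the whole window it occurred in 4 of the 7 promoters and in 36.7% of all, and within 100 bases before the start in 3 of the 7 and in 15.2% of all. TATAAA was found in Prm2 alone, on the opposite strand, and in 13.6% of all promoters. The 100 bases before the start of Smcp and Spem1 held neither pattern. These matches are letters only, and no binding was measured.

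The histone-replacing genes led the testis transcriptome. Prm1, whose product is the protamine shared by all mammals, had the highest mean of all genes in each group, at 14339 TPM in wild-type, 13386 TPM in Tug1-/- and 13033 TPM in rescue testes. Prm2, the second protamine, made as a precursor that is cut on the DNA, was second at 12768, 11663 and 11685 TPM. Both Tug1-/- and rescue means lay below the wild-type mean for these genes.

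Tnp2 and Tnp1, which hold the DNA between histones and protamines, came next in each group, with ranks 3 and 4. Tnp2 was at 11259 TPM in wild-type, 11304 TPM in Tug1-/- and 10727 TPM in rescue testes. Tnp1 was at 10705, 10247 and 9942 TPM. Tnp2 was the one gene of the 8 whose Tug1-/- mean was not below the wild-type mean.

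Smcp, which stabilises the mitochondria wound around the sperm midpiece, was seventh of all genes, at 5054 TPM in wild-type, 4572 TPM in Tug1-/- and 4458 TPM in rescue testes. The other 3 genes stood far below. Spem1, whose loss is known to bend the sperm head back, was at 958, 893 and 871 TPM. Prm3, which despite its name is an acidic protein of the cytoplasm, was at 859, 794 and 799 TPM although it lies between Tnp2 and Prm2. Oaz3, which restrains polyamine synthesis in the haploid cell, was at 644, 573 and 602 TPM.

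**Figure D1:**
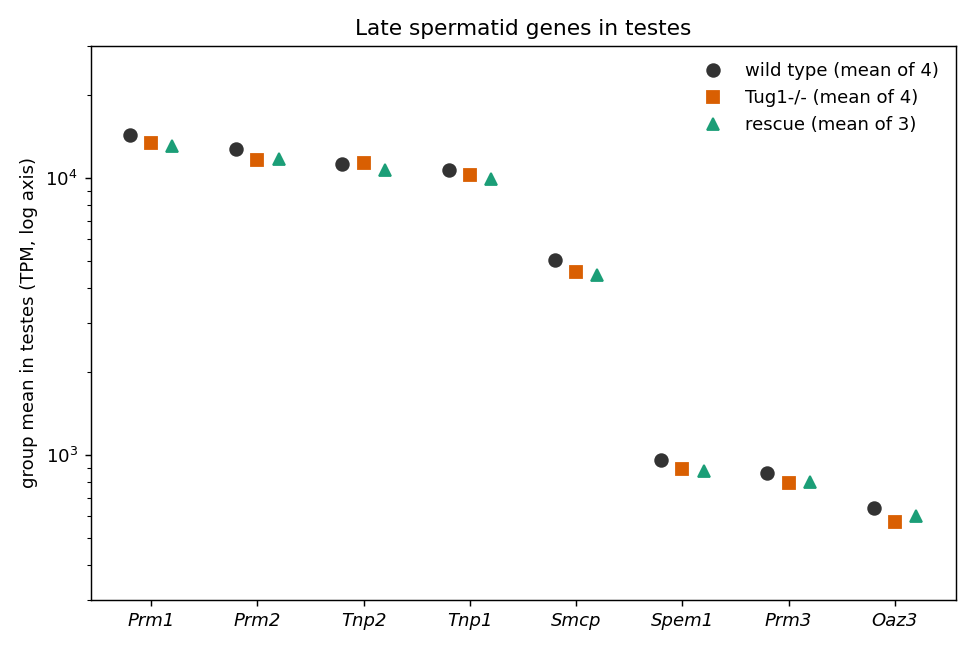
Group mean TPM in testes (log axis) of the 8 late spermatid genes, with a circle for wild type, a square for Tug1-/- and a triangle for rescue. The order of the genes is the same in the 3 groups, and the 3 symbols of each gene lie close together beside the distance between Smcp, at 4458 to 5054 TPM, and Spem1, at 871 to 958 TPM.

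The order of the 8 levels, Prm1, Prm2, Tnp2, Tnp1, Smcp, Spem1, Prm3 and Oaz3, was the same in wild-type, Tug1-/- and rescue testes. Neighbours in it were close at the top, where wild-type Prm1 was 1.12 times Prm2, Prm2 1.13 times Tnp2 and Tnp2 1.05 times Tnp1. The wide step was from Smcp to Spem1, 5.27-fold in wild type, 5.12-fold in Tug1-/- and 5.12-fold in rescue. Without library values it cannot be said which neighbours differ beyond the spread between animals.

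Together the 8 genes held 56587 TPM, 5.66% of the wild-type total. They held 53431 TPM, 5.35%, in Tug1-/- and 52118 TPM, 5.22%, in rescue testes. The sum was thus 5.58% lower in Tug1-/- and 7.90% lower in rescue than in wild type. In bulk tissue, fewer cells of a type and less RNA per cell cannot be told apart.

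The first comparison, Tug1-/- over wild type, asked what the deletion does in the testis. Ratios below are log2 of the group means after adding 0.1 TPM, over genes of at least 1 TPM in either group, and a ratio is called past the fold when it exceeds 1.1-fold in either direction. The Tug1-/- mean was lower for 7 of the 8 genes, as it was for 38.3% of all 22378 genes and for 50.2% of the 279 genes of at least 500 TPM, a range that holds all 8. The median of the 8 ratios was -0.11, and that of all genes 0.03. The differences were small: 2 of the 8 were lower past the fold, against 14.6% of all genes and 5.38% of those of at least 500 TPM, and none was higher, against 22.0% of all genes and 3.23% of those of at least 500 TPM.

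Oaz3 had the lowest ratio, -0.17, followed by Smcp at -0.14, and both were past the fold. Prm2 at -0.13, Prm3 at -0.11, Spem1 at -0.10, Prm1 at -0.10 and Tnp1 at -0.06 lay inside it. Tnp2, at 0.01, had a ratio above 0, which became -0.03 when all ratios were centred on the median of all genes and -0.02 relative to the round spermatid genes described below. The largest differences in level were in the protamines, Prm2 being 1105 TPM and Prm1 953 TPM lower in Tug1-/-.

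The pair of transition proteins and the pair of protamines did not keep their wild-type ratios exactly. The level of Tnp2 per Tnp1 was 1.05 in wild-type, 1.1 in Tug1-/- and 1.08 in rescue testes. Tnp2 per Prm2 was 0.882, 0.969 and 0.918. Prm1 per Prm2 was 1.12, 1.15 and 1.12, and Prm2 per Prm3, its neighbour in the cluster, 14.9, 14.7 and 14.6. The Tug1-/- value lay at the upper end in each of the first 3 ratios, which all use Tnp2 or Prm2. Prm1 and Prm2, like Prm2 and Prm3, stayed nearly in proportion.

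**Figure D2:**
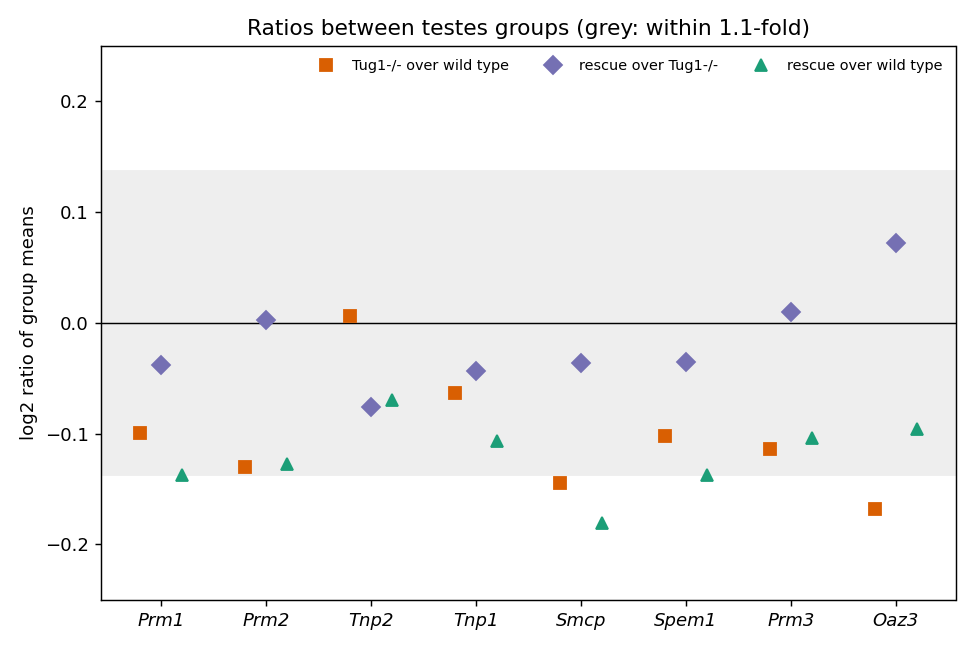
Log2 ratio of group mean TPM for the 8 late spermatid genes in 3 comparisons of testes, with ratios within 1.1-fold in grey. Squares (Tug1-/- over wild type) lie below 0 for 7 genes, diamonds (rescue over Tug1-/-) lie within the grey band, and triangles (rescue over wild type) lie below 0 for all 8.

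The second comparison, rescue over Tug1-/-, asked whether the transgene moves the same genes. None of the 8 was past the fold, while 18.6% of all 22180 genes were lower and 14.3% higher past it. The rescue mean was lower for 5 of the 8, as for 47.5% of all genes and 48.6% of the 280 of at least 500 TPM, among which 1.79% were lower and 5.36% higher past the fold. The median of the 8 ratios was -0.04, and that of all genes 0.01. Oaz3 had the highest ratio, 0.07, and Tnp2 the lowest, -0.08. Prm3 at 0.01 and Prm2 at 0.00 were nearly level. Relative to the round spermatid genes the ratios of Prm1, Tnp1, Smcp and Spem1 turned from just below to just above 0, and centring on all genes turned that of Prm2 to just below 0.

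The last comparison, rescue over wild type, shares its libraries with the other two. All 8 rescue means were below the wild-type means, as were those of 40.1% of all 22393 genes and 50.3% of the 288 of at least 500 TPM. Past the fold and lower were 3 of the 8, against 19.3% of all genes and 7.64% of those of at least 500 TPM, and none was higher, against 26.2% of all genes and 6.94% of those of at least 500 TPM. The median of the 8 was -0.12, and that of all genes 0.04. Smcp was the lowest, 11.8% below wild type with a log2 ratio of -0.18. Prm1 and Spem1 lay just past the fold, each at -0.14, and Prm2 just inside it at -0.13. With a pseudocount of 1 TPM Spem1 was inside it too, and relative to the round spermatid genes both Prm1 and Spem1 were, each at -0.13. Tnp2 was nearest to wild type at -0.07, with Oaz3 at -0.10, Prm3 at -0.10 and Tnp1 at -0.11 between. Seen over the 3 groups, Prm1, Tnp1, Smcp and Spem1 had their lowest mean in rescue testes, as did Tnp2, whereas Prm2, Prm3 and Oaz3 had it in Tug1-/- testes.

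**Figure D3:**
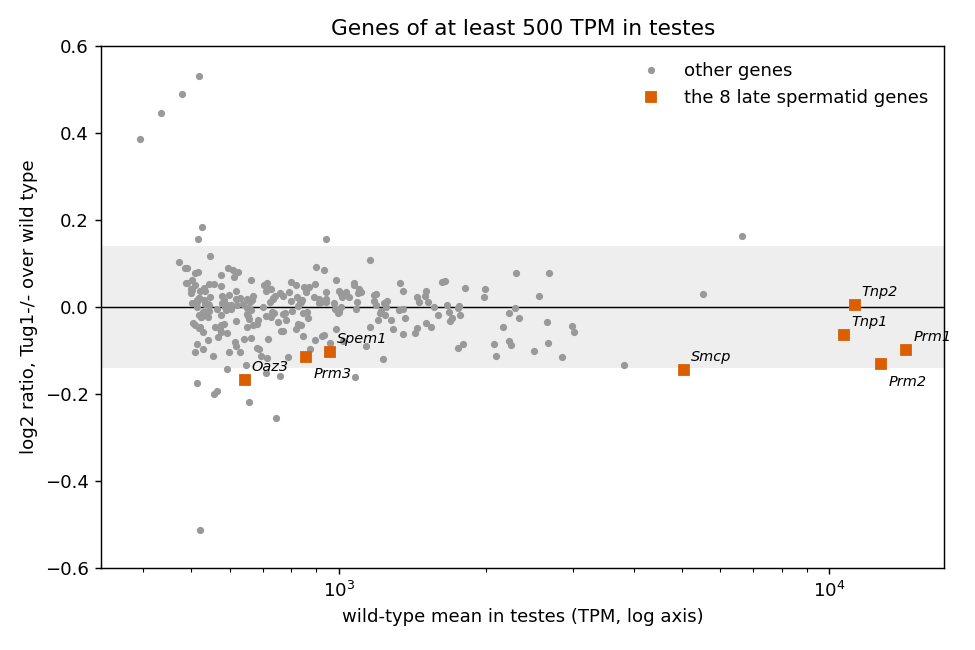
Log2 ratio of Tug1-/- over wild-type testes against the wild-type mean (TPM, log axis) for the 279 genes of at least 500 TPM in either group, with the 8 late spermatid genes as labelled squares and ratios within 1.1-fold in grey. Genes outside the axis, 3 below and 1 above, are not drawn; 7 of the 8 squares lie below the lower quartile of these genes, which is -0.05, and Tnp2 lies near 0.

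Other genes of the same stage had ratios of like size. The list of other late spermatid genes held Odf1 (outer dense fibres of the tail), Akap4 (fibrous sheath), Gapdhs (the sperm glycolytic enzyme) and 6 more. In Tug1-/- over wild type its 9 genes had a median of -0.10, and 8 of the 9 were lower, although none was past the fold. Of all genes, 38.3% were lower and 14.6% lower past the fold. Of those of at least 500 TPM these shares were 50.2% and 5.38%. Odf1 was at 2847 TPM in wild-type, 2628 TPM in Tug1-/- and 2609 TPM in rescue testes. Akap4 was at 2229, 2111 and 2008 TPM, and Gapdhs at 2094, 1939 and 1955 TPM. In rescue over wild type all 9 were lower, 4 of them past the fold, with a median of -0.13. The shares were then 40.1% and 19.3% of all genes, and 50.3% and 7.64% of those of at least 500 TPM.

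Genes that act on these messages and on the chromatin they serve had list medians nearer to 0. Of 10 chromatin condensation genes, 3 were higher and none lower past the fold in Tug1-/- over wild type, beside 22.0% higher among all genes, with a median of 0.03. The 3, named after their values were seen, were the testis histones Hist1h2ba, with a log2 ratio of 0.38, and Hist1h2aa, with 0.17, and the ubiquitin ligase Rnf8, with 0.16, all of them at 3.89 to 16.9 TPM. Hils1, a linker histone of spermatids, was at 1497, 1523 and 1485 TPM in wild-type, Tug1-/- and rescue testes, H1fnt, another one, at 1242, 1225 and 1193 TPM, and Psme4, part of the proteasome that removes acetylated histones, at 371, 367 and 364 TPM. Of 12 genes for the transcription, storage and translation of spermatid messages, 1 was higher and none lower past the fold, with a median of 0.04. Ybx2, which binds stored messages, was at 1992, 2050 and 2231 TPM, Fhl5, the testis partner of CREM, at 544, 564 and 514 TPM and Papolb, the testis poly(A) polymerase, at 531, 548 and 528 TPM. Crem itself, chosen after its values were seen, was at 100.4 TPM in wild-type, 102.4 TPM in Tug1-/- and 102.7 TPM in rescue testes. In rescue over wild type the condensation list had 3 genes higher and 1 lower past the fold, and the message list 2 higher and none lower. Among all genes 26.2% were higher and 19.3% lower past it.

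Lists for the earlier germ cells were ordered by stage in their medians. For Tug1-/- over wild type the round spermatid list, with Txndc8 (351, 344 and 331 TPM), Spaca1 (299, 317 and 297 TPM) and Tssk1 (251, 253 and 251 TPM), had a median of 0.03, and none of its 8 genes was past the fold. The 9 spermatocyte genes, led by Ldhc (5525, 5637 and 5551 TPM), Pgk2 (1597, 1577 and 1507 TPM) and Piwil1 (311, 330 and 366 TPM), had a median of 0.08, with 2 higher and none lower past the fold. The 8 spermatogonial genes, led by Uchl1 (49.0, 56.1 and 57.6 TPM), Dmrt1 (17.7, 19.6 and 24.0 TPM) and Stra8 (16.9, 19.1 and 19.7 TPM), had a median of 0.10, with 3 higher and 1 lower. Among all genes, 22.0% were higher and 14.6% lower past the fold in this comparison. In rescue over wild type the medians were 0.00 for round spermatid, 0.11 for spermatocyte and 0.22 for spermatogonial genes. The medians of the 8 late genes and of the other late spermatid list were below these in both comparisons, which share the wild-type libraries. In rescue over Tug1-/- the late medians were not below that of the round spermatid list. There the medians were -0.036 for the 8 genes, -0.040 for the other late list and -0.044 for the round spermatid list. No test of the difference between lists was made.

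**Figure D4:**
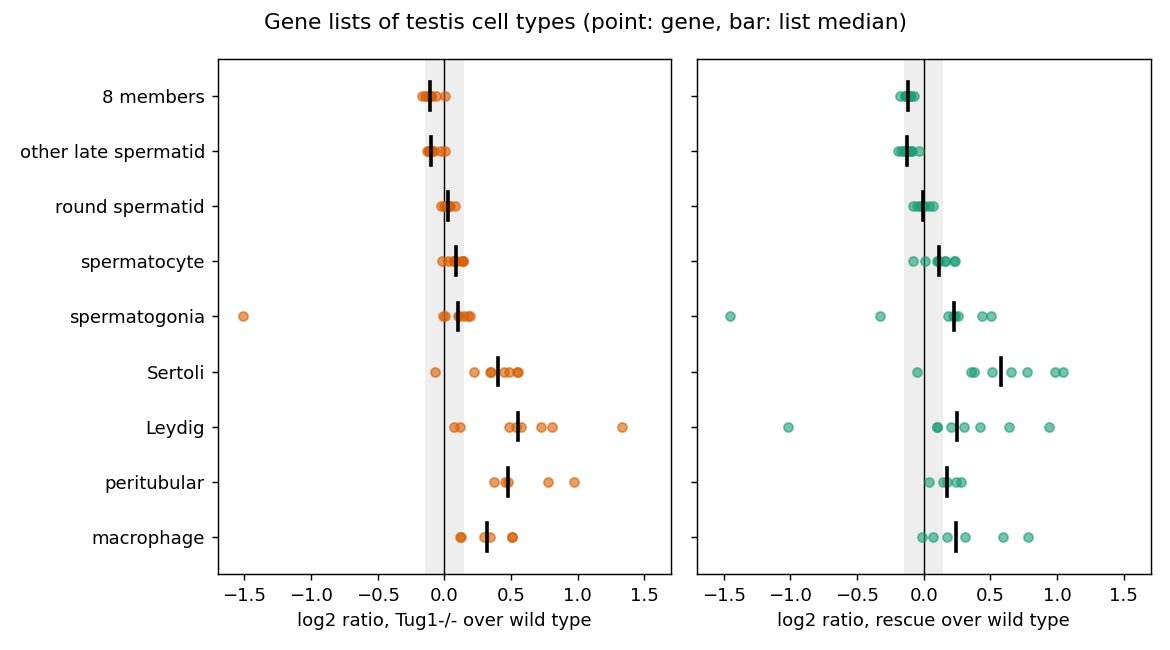
Log2 ratio of group mean TPM for each gene (points) and list median (bars) in testes, for Tug1-/- over wild type on the left and rescue over wild type on the right, with ratios within 1.1-fold in grey. The medians of the 8 late genes, -0.11 and -0.12, and of the other late spermatid genes lie left of 0, and those of spermatocyte, spermatogonial and somatic lists lie right of it.

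Markers of somatic testis cells differed in the same contrast, the other way. Of 8 Sertoli genes, 7 were higher past the fold in Tug1-/- over wild type and none lower, and the sum of the list was 1031, 1063 and 1102 TPM in wild-type, Tug1-/- and rescue testes. Most of that sum was Clu (848, 809 and 818 TPM), followed by Cldn11 (94.2, 137.8 and 148.0 TPM) and Rhox5 (35.7, 48.7 and 61.1 TPM). Of 8 Leydig genes, 6 were higher and none lower, and the list summed to 671, 962 and 764 TPM, led by Cyp17a1 (235, 341 and 315 TPM), Hsd3b6 (136, 147 and 67.1 TPM) and Hsd3b1 (107, 112 and 131 TPM). All 5 peritubular genes were higher, with sums of 109, 152 and 125 TPM, led by Acta2 (76.7, 105.4 and 90.8 TPM), Myh11 (21.7, 28.1 and 22.3 TPM) and Cnn1 (4.15, 7.19 and 5.07 TPM). Of 6 macrophage genes 4 were higher, with sums of 90.9, 120.2 and 118.9 TPM, led by Lyz2 (37.0, 52.5 and 41.7 TPM), C1qb (22.2, 27.2 and 33.5 TPM) and C1qa (13.6, 19.4 and 23.5 TPM). Of the 4 endothelial genes of at least 1 TPM 2 were higher, and all 5 of the list summed to 12.2, 13.9 and 13.4 TPM, led by Cdh5 (5.28, 6.28 and 6.15 TPM), Tek (2.78, 2.82 and 2.85 TPM) and Kdr (2.02, 2.71 and 2.45 TPM). Among all genes, 22.0% were higher and 14.6% lower past the fold in Tug1-/- over wild type. In rescue over wild type 7 Sertoli, 5 Leydig, 4 peritubular, 4 macrophage and 2 endothelial genes were higher past the fold. In that comparison 1 Leydig gene was lower, beside 26.2% higher and 19.3% lower among all genes. The part of these lists in the lower means of the late spermatid genes was not tested.

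Genes of the epididymis, the duct attached to the testis, also differed between the groups. The 6 genes of that list summed to 2831 TPM in wild-type, 809 TPM in Tug1-/- and 9.10 TPM in rescue testes. Lcn8, a lipocalin of its first segment, was at 799, 0.244 and 0.160 TPM and Lcn5, another one, at 680, 0.0155 and 0.132 TPM, whereas Crisp1, which coats sperm, was at 427, 760 and 0.348 TPM. In Tug1-/- over wild type 5 of the 6 were lower and 1 higher past the fold, against 14.6% and 22.0% of all genes. In rescue over wild type all 6 were lower past it, against 19.3% of all genes. Gpx5, a peroxidase of the epididymis that stood out after the values were seen, was at 1921, 0.981 and 0.297 TPM. Which libraries carried these RNAs cannot be read from means. With the list left out of the TPM total, the median of the 8 late genes was -0.11 in Tug1-/- over wild type and -0.12 in rescue over wild type. The part of other epididymal RNA was not tested.

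Around the 8 genes, 30 other listed genes lay within 50 kb, and 24 of them reached 1 TPM in a testes group. Those of at least 100 TPM in wild type were 4. The antisense RNA 1700027A15Rik, which contains all 836 bases of Tnp1 on the opposite strand, was at 412, 376 and 359 TPM in wild-type, Tug1-/- and rescue testes. The sources do not say if the count used strand, so reads of this pair may not be separated. Next to Spem1, its relative Spem2 was at 592, 537 and 580 TPM and Gm39566 at 304, 283 and 303 TPM. Riiad1, near Oaz3, was at 279, 276 and 266 TPM.

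The protamine cluster was flanked by genes of low level. Socs1, an inhibitor of cytokine signalling that lies 2400 bases from Tnp2, was at 4.32, 5.33 and 6.21 TPM, and the pseudogene Gm10343, 4483 bases from Prm1, at 46.0, 44.3 and 43.1 TPM. Clec16a was at 30.2, 29.4 and 32.4 TPM and Rmi2 at 1.17, 1.30 and 1.47 TPM. Oaz3 shares 2255 bases with Tdrkh (21.6, 22.8 and 24.7 TPM) and 598 with Mrpl9 (22.4, 24.0 and 23.5 TPM), both on the opposite strand, and lies near 1700040D17Rik (18.9, 20.1 and 22.9 TPM), Celf3 (37.9, 39.8 and 37.9 TPM) and Gm42464 (1.04, 1.09 and 1.17 TPM). Near Spem1, Tmem102 was at 2.20, 1.30 and 1.16 TPM and Tnk1 at 2.46, 1.65 and 1.23 TPM, with log2 ratios of -0.72 and -0.55 in Tug1-/- over wild type. The other neighbours of Spem1, which are Zbtb4, Chrnb1, Fgf11, Nlgn2, Tmem256 and Plscr3, and those of Smcp, 2210017I01Rik and Lce6a, lay between 1.36 and 9.99 TPM. Most genes beside the 8 were at low levels.

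Outside the testis the 8 genes were almost silent. Of 48 pairs of gene and tissue, 14 were listed and 34 were not; by the study's methods, a gene stayed in a table only if some replicate had at least 3 reads. Prm2, Prm3 and Smcp were listed in no other tissue. Oaz3 was listed in all 6, with the highest mean 0.680 TPM in wild-type eyes beside 0.674 TPM in Tug1-/- eyes, from a mean normalised count of 40.0 over both genotypes. In prostate it was at 0.548 and 0.342 TPM, and in spleen at 0.258 and 0.263 TPM. In heart, liver and MEFs it stayed at or below 0.0721 TPM. Its overlapping neighbour Mrpl9 was at 44.2 TPM or more in every one of these tissues, and the part of that overlap was not tested.

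Prm1 was listed in 4 tissues, at 0.647 and 1.2 TPM in eyes (wild type first, then Tug1-/-), 0.857 and 0.361 TPM in spleen, 0.280 and 0.293 TPM in prostate and 0.400 and 0.475 TPM in MEFs. The mean normalised counts behind these were 6.18, 4.16, 1.79 and 2.10, so that no order between genotypes can be read from them. Tnp2 was listed in eyes, at 0.463 and 0.198 TPM, and in spleen, at 0.267 and 0.30 TPM, and Tnp1 in eyes, at 0.332 and 0.315 TPM. Spem1 had the highest value outside the testis, 2.42 TPM in eyes of wild-type and 2.29 TPM in those of Tug1-/- mice, with a mean normalised count of 33.6. That is 0.253% of its wild-type testes mean. Nlgn2, a synaptic gene that ends 942 bases upstream of Spem1 on the same strand, was at 74.8 and 63.7 TPM in eyes, and its part in the value of Spem1 was not tested.

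**Figure D5:**
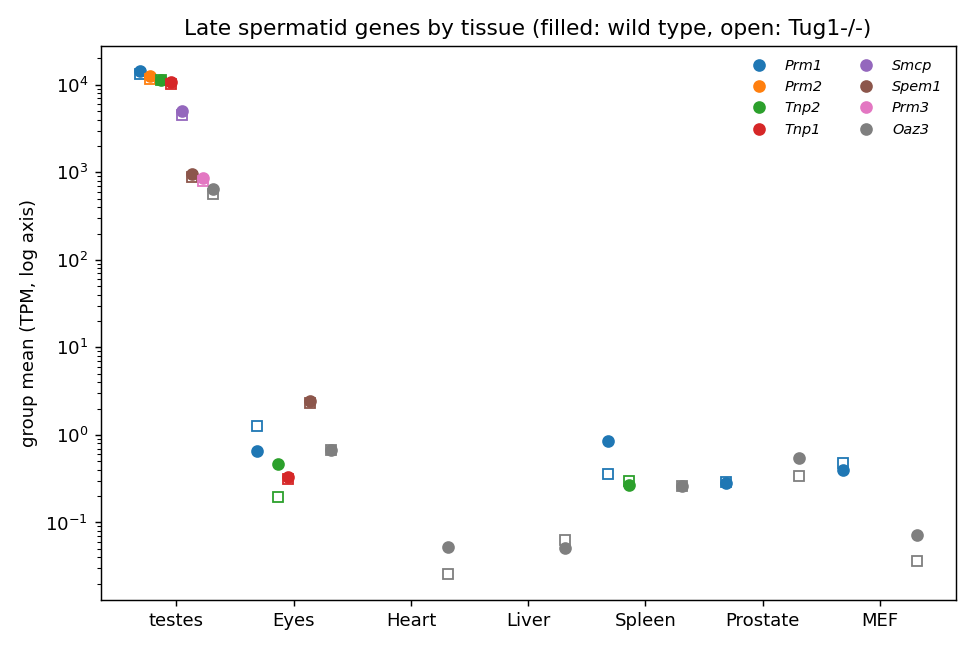
Group mean TPM (log axis) of the 8 late spermatid genes in testes and 6 other tissues, with filled circles for wild type and open squares for Tug1-/-; genes not listed in a tissue have no symbol. Testes means lie above 500 TPM, and the highest mean elsewhere is that of Spem1 in eyes, 2.42 TPM.

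By profile over the 15 group means (log2 of TPM plus 1, Euclidean distance to the median of the 8 genes, genes not listed set to 0), the likest other genes were Ldhc (lactate dehydrogenase of germ cells, distance 0.774), Crisp2 (a sperm head and tail protein, 2.23), Odf1 (2.44), Spz1 (a testis transcription factor, 2.59) and Akap4 (3.03). The 8 genes themselves lay at distances from 0.988 for Tnp1 to 6.18 for Oaz3. This measure is set mainly by the testes level. Crisp2 was at 3022, 2905 and 2840 TPM and Spz1 at 2665, 2519 and 2407 TPM in wild-type, Tug1-/- and rescue testes. In Tug1-/- over wild type their log2 ratios were -0.06 and -0.08, and that of Ldhc 0.03.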

How the data were processed

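The authors sequenced poly(A) RNA as paired-end reads, aligned them with STAR to mm10 (GRCm38, GENCODE vM16), assigned unique alignments to genes by featureCounts, and kept genes that had at least 3 reads in some replicate. Base calling used CASAVA 1.8.2, per the submitters' processing notes. The testes table holds, as deposited by the authors, a mean TPM per group. The table of the other tissues stacks mean TPM per genotype, read here as a deposited signal because the tissues share a column, and a mean normalised count over both genotypes. Depth per library is unknown. Both tables also hold the authors' own comparisons (DESeq2 fold changes, p-values and calls), which were not used. Brain rows were not used, since no brain sample is listed. There were 0 further columns of per-sample values.

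Ratios were computed in Python 3.11.15 with pandas as log2 of means plus 0.1 TPM, over genes of at least 1 TPM in either group, and called past the fold above 1.1-fold. The step was run on simulated data with planted changes larger than those of the 8 genes. That checks the arithmetic alone and not the calls near the fold. Genes were joined by identifier, and coordinates come from the tables. Named genes were the 8, Tug1, up to 3 genes per list with the highest wild-type mean, neighbours within 50 kb of at least 1 TPM, and the 5 likest profiles. The 8 genes, lists and rules were chosen with earlier results of these data known. Alternatives were another pseudocount, other filters, centring, rescaled totals, a stricter fold, a 20 kb window and motifs within 100 bases before the start. A few listed genes are not reported here.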

Additional observations from a re-analysis of the deposited data

How the results depend on the processing

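The levels used are group means, so no replicate could be left out. No paired analysis was possible because no value of a single sample was used. Filters and fold limits leave the ratio of a single gene as it is. Rescaling and centring shift all genes alike, and centring, on all genes or on round spermatid genes, turned the sign of 7 ratios near 0. In Tug1-/- over wild type, 4 of the 8 genes in place of 2 were lower past the fold both after centring on all genes and relative to round spermatid genes, and 0 at a fold limit of 25% in place of 10%; the counts among all 22378 genes were then 3912, 3771 and 1489. In rescue over wild type the count of 3 became 6 after centring, 2 with a pseudocount of 1 TPM, 1 relative to round spermatid genes and 0 at the limit of 25%, beside 5235, 3744, 4216 and 2171 of all 22393 genes. In rescue over Tug1-/-, genes with a ratio below 1 went from 5 to 1 relative to round spermatid genes. Genes lower past the fold among all genes numbered 3272 in Tug1-/- over wild type, 560 from 10 TPM and 7429 with no filter. Those counts were 4120, 890 and 9394 in rescue over Tug1-/-, and 4314, 964 and 9437 in rescue over wild type. The numbers of genes higher past the fold, in the same order, were 4921, 1602 and 9311, then 3162, 789 and 6679, and then 5866, 2436 and 9688. Within 20 kb in place of 50 lay 17 neighbours, 14 of at least 1 TPM and 3 of at least 100 TPM in wild type. In other tissues, mean normalised counts of the listed genes did not exceed 40.0, and no comparison between genotypes can be drawn from them. In the 100 bases before the start, TATA was in 3 of 7 promoters and 15.2% of all, in place of 4 and 36.7%, TGANNTCA in 3 and 6.34% of all, TATAAA in 1 and 5.56%, TGACG in 0 and 10.5%, and TGACGTCA in 0 and 1.15%. The limit of 500 TPM, the total without the epididymis list and the motifs TGANNTCA and TATA were chosen after seeing the data.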

Other observations

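Among the genes of at least 500 TPM, 15 were lower past 1.1-fold in Tug1-/- over wild-type testes. They were Smcp and Oaz3, the epididymal genes Lcn5, Lcn8 and Gpx5, and 10 more, which are named here after their values were seen. H2al2a, a histone variant of condensing spermatids, was at 565 TPM in wild-type, 494 TPM in Tug1-/- and 505 TPM in rescue testes. Spem2, the neighbour of Spem1, was at 592, 537 and 580 TPM, and Tppp2, a tubulin-binding protein of sperm, at 655, 563 and 621 TPM. Cst8, a cystatin made in testis and epididymis, was at 747, 626 and 590 TPM, and Itm2b, a membrane protein found in many tissues, at 521, 365 and 240 TPM. The others were 1700012A03Rik (558, 486 and 481 TPM), Ccdc91 (514, 456 and 454 TPM), 4930571K23Rik (1078, 965 and 990 TPM), 1700015G11Rik (759, 680 and 632 TPM) and Gm11780 (711, 640 and 607 TPM). Of these 10, 7 were also lower past the fold in rescue over wild type, a comparison that uses the same wild-type libraries. The part of epididymal RNA in the values of these 10 was not tested.

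Among spermatogonial genes, Gfra1, the receptor for the niche factor GDNF, was at 11.1 TPM in wild-type, 3.84 TPM in Tug1-/- and 4.0 TPM in rescue testes, while Zbtb16 was at 3.10, 3.08 and 3.72 TPM. Of the 8 genes of that list, Gfra1 was the only 1 lower past the fold in Tug1-/- over wild type. There 3 were higher past it, and the list median was 0.10. Among Leydig genes, Insl3 was at 56.9, 143.8 and 65.5 TPM. Both genes were picked after their values were seen.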
